A study of Bos taurus with 68 samples.

Results

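The nuclear genes that encode the mitochondrial respiratory chain and the ATP synthase were followed in bovine liver from late pregnancy into lactation. Their clones were chosen by the updated gene symbol, which had to begin with NDUF, SDHA, SDHB, SDHC, SDHD, UQCR, COX4 to COX8 or ATP5, or to be CYC1 or CYCS. This gave 57 clones of 52 genes, out of 5693 listed clones of 4452 genes on a 2-colour cDNA array. Complex I had 22 clones, complex II had 2, complex III had 9, complex IV had 7 and complex V, the ATP synthase, had 11. A further 6 clones carried a matching symbol but encode an assembly factor, a regulator or a paralogue and were kept apart. CYC1 and CYCS had no clone among those listed.

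Liver RNA came from 5 cows (6934, 6983, 7079, 7186 and 7188) on days -65, -30, -14, 1, 14, 28 and 49 relative to calving, and the labels give no treatment, genotype, breed or age. Every liver RNA met a reference standard RNA on 2 arrays, once in each dye, and the mean of both is the value of a cow on a day, called a cow-day. The analysed table held 60 arrays and 30 cow-days, with all 5 cows at -65, -30, 1 and 28, cows 6983, 7186 and 7188 at -14, cows 6983, 7079 and 7186 at 14, and all cows but 6983 at 49. A value is a log2 ratio of liver over the reference after subtracting the array median, so it describes liver against that reference and does not rank transcripts against each other. The labels do not say which dye is the numerator. The direction used here is likely, since hepatocyte markers lay above the reference, and with the other numerator every sign would turn, those of differences between days included.

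The respiratory chain passes electrons from NADH at complex I and from succinate at complex II through ubiquinone, complex III and cytochrome c to oxygen at complex IV. Complexes I, III and IV move protons across the inner mitochondrial membrane, and complex V uses the return of these protons to make ATP. In the liver of a dairy cow this system supplies the ATP for gluconeogenesis and urea synthesis and reoxidises the NADH and FADH2 that fatty acid oxidation yields, and gluconeogenesis and fatty acid oxidation run at high rates in early lactation.

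The arrays carried few defining markers of liver cell types. Since the hepatocyte clones set the sign, their side of the reference is no check of the tissue. All 4 lay above the reference with a median log2 ratio of 1.54, and 3 of 12 clones for stellate cells, fibroblasts and matrix did, with a median of -1.59. All 16 macrophage and Kupffer cell clones also lay above it, with a median of 1.61. With either sign the hepatocyte and macrophage medians lie on one side of the reference and the stellate and matrix median on the other. In these bulk samples, fewer cells of a type and less RNA per cell cannot be told apart.

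The exchanged pairs differed systematically in the members. A clone's mean with liver labelled Cy5 exceeded its mean with liver labelled Cy3 in 48 of 57 member clones (84.2%), against 50.0% of all listed clones. The median gap was 0.60 log2 units in the members and 8.3e-05 over all listed clones. Both orientations put a clone on the same side of the reference in 22 of 57 member clones (38.6%), of which 9 lay above it and 13 below, against 43.2% of all listed clones. Averaging cancels a gap that both arrays of a pair share, on whatever day, and whether they shared it was not tested. The gap differed between days: its mean over the tested members was 0.23 ± 0.20 on day -30, 0.56 ± 0.22 on day 1 and 0.20 ± 0.14 on day 28 (SD, n = 5 cows on each day). On days -65, -14, 14 and 49 it lay between 0.52 and 0.60. In 5 cow-days the raw ratios of the pair did not oppose each other as exchanged dyes should: day 1 of cow 7079, day 14 of cows 6983 and 7186, and day 49 of cows 6934 and 7188.

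Over all days, 21 of 57 member clones lay above the reference and 36 below it, with a median log2 ratio of -0.09. A mean within 0.5 log2 units of the reference was found in 47 of 57 members (82.5%), against 75.8% of all listed clones. Such a mean can join orientations that lie far apart. The gap between orientations exceeded 0.5 in size in 42 of 57 members and in 3376 of 5693 listed clones. Member means ran from -0.93 for COX7A2 to 1.00 for NDUFV1. The plot of levels shows every clone with both orientations beside the mean. The orientations shared a side of the reference in 9 of 22 clones of complex I, 1 of 2 of complex II and 5 of 9 of complex III. They did so in 2 of 7 clones of complex IV and 2 of 11 of complex V. The SD over cows of a level does not include the gap between orientations.

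**Figure D1:**
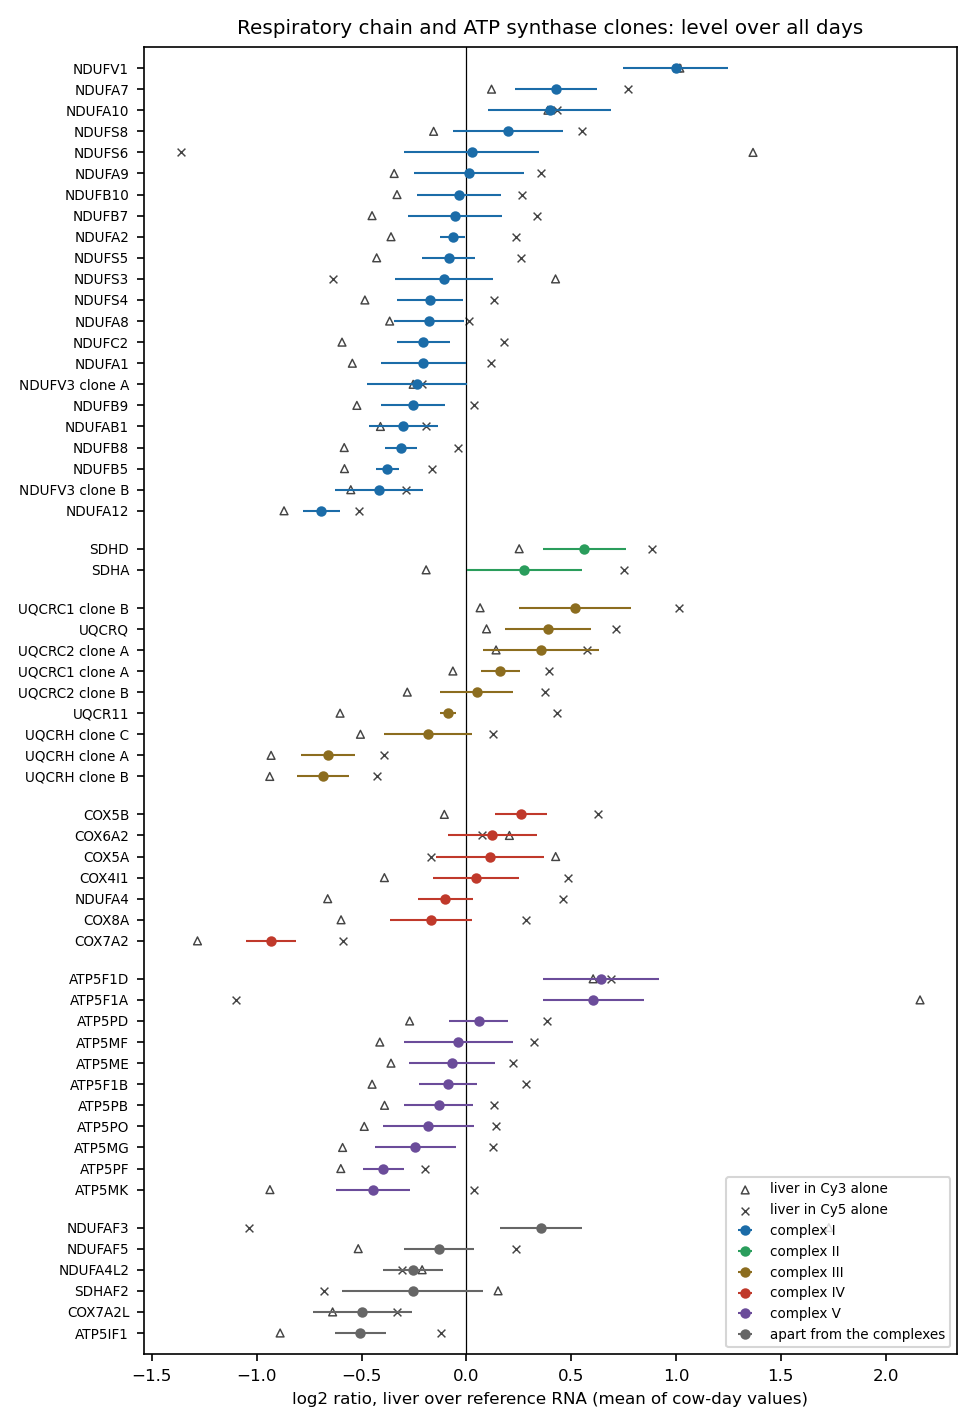
Mean log2 ratio of liver over reference RNA for each of the 57 clones (x axis, log2 units), grouped by complex and ordered within it (y axis). Filled points are the mean of cow means with SD over 5 cows, open triangles are arrays with liver in Cy3 alone and crosses are arrays with liver in Cy5 alone. NDUFV1 lies at 1.00 in the mean, and COX7A2 at -0.93 is the lowest clone.

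In complex I, 6 of 22 clones lay above the reference. NDUFV1, the flavoprotein subunit that binds NADH and FMN, stood highest, at 1.00 ± 0.25 (SD, n = 5 cows), with 1.02 in the Cy3 orientation and 1.01 in the Cy5 orientation. It was above the reference in 30 of 30 cow-days, and its lowest cow-day was 0.43. NDUFA7, an accessory subunit, averaged 0.43 ± 0.19, and NDUFA10, an accessory subunit related to nucleoside kinases, averaged 0.40 ± 0.29. At the other end, NDUFA12, another accessory subunit, averaged -0.69 ± 0.09 and was below the reference in all 30 cow-days. NDUFV3, a small subunit beside NDUFV1, was read by 2 clones, at -0.24 ± 0.24 and -0.42 ± 0.21. The core subunits NDUFS3 and NDUFS8 averaged -0.11 ± 0.23 and 0.20 ± 0.26, and each changed side with the orientation. NDUFS3 read 0.43 in the Cy3 orientation and -0.64 in the Cy5 orientation, and NDUFS8 read -0.16 and 0.55. NDUFS6, a zinc-binding accessory subunit, had a mean of 0.03 that joined 1.37 in the Cy3 orientation with -1.36 in the Cy5 orientation, and it was measured in 26 cow-days.

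Complex II, which is also an enzyme of the citric acid cycle, was represented by SDHA, its catalytic flavoprotein, and SDHD, one of its membrane anchors. SDHA averaged 0.28 ± 0.28 and SDHD 0.56 ± 0.20 (SD, n = 5 cows). SDHD was above the reference in 27 of 30 cow-days and in both orientations, while SDHA averaged -0.19 in the Cy3 orientation.

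Complex III had the widest disagreement among clones of 1 gene. The core proteins UQCRC1 and UQCRC2 had 2 clones each: UQCRC1 averaged 0.16 ± 0.09 on clone A and 0.52 ± 0.27 on clone B, and UQCRC2 averaged 0.36 ± 0.28 on clone A and 0.05 ± 0.17 on clone B. UQCRH, the acidic hinge protein, gave -0.66 ± 0.13 and -0.68 ± 0.12 on clones A and B but -0.18 ± 0.21 on clone C. UQCRQ, a small membrane subunit, was above the reference in 28 of 30 cow-days, at 0.39 ± 0.20. UQCR11, another small subunit, averaged -0.09 ± 0.04, a mean that joined -0.60 in the Cy3 orientation with 0.43 in the Cy5 orientation.

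Complex IV, cytochrome c oxidase, held the lowest clone of all. COX7A2, the subunit VIIa form found in liver, averaged -0.93 ± 0.12 (SD, n = 5 cows) and was below the reference in all 30 cow-days, with -1.28 in the Cy3 orientation and -0.59 in the Cy5 orientation. COX8A, the widely expressed form of subunit VIII, averaged -0.17 ± 0.20 and was above the reference in 5 of 30 cow-days. COX4I1, the common form of subunit IV, averaged 0.05 ± 0.20, and COX5B and COX5A, the next nuclear subunits, averaged 0.26 ± 0.12 and 0.11 ± 0.26. COX6A2, known as the heart and skeletal muscle form of subunit VIa, averaged 0.12 ± 0.21. Of the 4 clones of muscle markers, 2 lay above the reference, and any part of muscle RNA in the COX6A2 value was not tested. NDUFA4, first described as a complex I protein and since placed in complex IV, averaged -0.10 ± 0.13. Of the 7 clones of complex IV, COX7A2 and COX6A2 kept their side of the reference in both orientations, and the others did not.

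In complex V, 3 of 11 clones lay above the reference. ATP5F1D, the delta subunit of the central stalk, averaged 0.64 ± 0.28 with 27 of 30 cow-days above the reference and lay above it in both orientations. The catalytic hexamer was read by ATP5F1B (beta subunit), at -0.09 ± 0.14, and by ATP5F1A (alpha subunit), at 0.61 ± 0.24. The ATP5F1A mean joined 2.16 in the Cy3 orientation with -1.10 in the Cy5 orientation, and this clone was measured in 26 cow-days and failed the filter for testing. ATP5MK and ATP5PF, a small membrane subunit and coupling factor 6 of the peripheral stalk, were lowest, at -0.44 ± 0.18 and -0.40 ± 0.10. The other peripheral stalk clones ATP5PB, ATP5PD and ATP5PO lay between -0.18 and 0.06.

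Of the 6 clones kept apart, 5 lay below the reference. ATP5IF1, which inhibits ATP hydrolysis by the ATP synthase, averaged -0.51 ± 0.12, and COX7A2L, a COX7A2 paralogue that joins complexes III and IV in supercomplexes, averaged -0.50 ± 0.24. NDUFA4L2, the paralogue of NDUFA4 induced by hypoxia in human cells, averaged -0.25 ± 0.14. The assembly factors averaged -0.13 ± 0.17 (NDUFAF5, complex I), -0.26 ± 0.34 (SDHAF2, needed to attach FAD to SDHA) and 0.36 ± 0.19 (NDUFAF3, complex I, measured in 27 cow-days and not tested). Each of these means joined orientations on opposite sides of the reference. The Cy3 and Cy5 orientations gave -0.52 and 0.24 for NDUFAF5, 0.15 and -0.68 for SDHAF2, and 1.73 and -1.04 for NDUFAF3.

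Each complex was described by the mean over its tested clones, with both orientations averaged. These means were not tested between days. Complex I ran between -0.12 on day 14 and -0.02 on day -14, a span of 0.10 log2 units over the 7 days. Complex V ran between -0.17 on day -65 and 0.05 on day 28, and complex III between -0.15 on day 49 and 0.09 on day 28. Complexes II and IV had the widest spans, both 0.36: complex II was lowest on day 49 at 0.25 and highest on day 28 at 0.61, and complex IV was lowest on day 49 at -0.26 and highest on day 28 at 0.10. Day 28 thus held the highest mean of complexes II, III, IV and V, and day -14 that of complex I. The SD over cows within a day ranged from 0.01 to 0.36. In complexes I, II, III and V the widest such SD was at least as large as the span. In complex IV it was 0.26, below the span of 0.36.

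**Figure D2:**
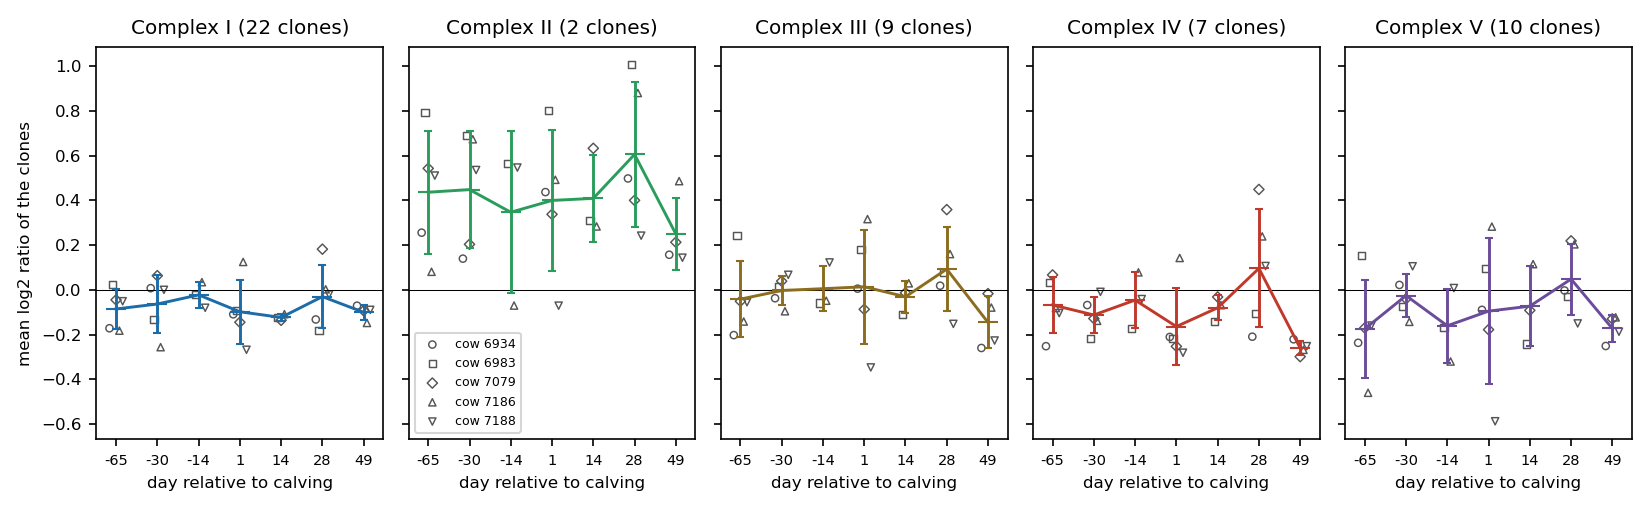
Mean log2 ratio over the tested clones of complexes I to V (y axis, log2 units) on the 7 days relative to calving (x axis, days spaced evenly). Small symbols are single cows, and the line with bars is the mean with SD over 3 to 5 cows. Complex II has the highest day mean on each day, and complex IV has its lowest mean, -0.26, on day 49 and its highest, 0.10, on day 28.

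Complex IV showed the day 49 value most evenly: 4 cows lay between -0.30 and -0.22, with an SD of 0.03. On day 28 its 5 cows were spread between -0.21 and 0.45, so the lowest cow of day 28 lay just above the highest of day 49. On day 1 cow 7186 stood at 0.14 while the other 4 cows lay between -0.28 and -0.21.

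Of the 57 clones, 55 were measured in 3 or more cows for every day and entered limma's fit with terms for day and cow. The moderated F test over the 7 days called 0 of 55 members at a Benjamini-Hochberg adjusted p under 0.05, against 1 of 5280 clones in all (0.0189%). At an unadjusted p under 0.05 it held 0 of 55 members, against 5.21% of all clones tested. The smallest p among the members belonged to ATP5F1D (F = 2.27, unadjusted p = 0.072, limma adjusted p = 0.97), followed by NDUFB9, COX5B, COX8A and SDHA with F between 1.86 and 1.96. The same fit gave a median 95% interval of ± 0.41 for a member's difference between single days and ± 0.27 for lactation against prepartum.

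Calving was addressed by day 1 against day -30, 2 days with all 5 cows. On the pair means 24 of 55 members had an estimate above 0, with a median difference of -0.02 log2 units, against 42.9% of all clones tested, with a median of -0.06. limma called 0 of 55 members, against 0.0189% of all clones, and an unadjusted p under 0.05 was reached by 2 of 55 members, against 8.37% of all clones. The median difference was 0.01 in complex I, -0.05 in complex II, -0.01 in complex III, -0.15 in complex IV and -0.04 in complex V. In complex IV 1 of 7 clones had an estimate above 0, and in the cows its mean was higher on day 1 than on day -30 in 1 of 5.

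Each orientation alone gave another direction. On arrays with liver in Cy3 alone 7 of 56 members had an estimate above 0 and the median was -0.21, whereas on arrays with liver in Cy5 alone 42 of 56 did and the median was 0.18. Over all clones the shares above 0 were 33.0% and 46.5% on those arrays. For complex V the counts were 0 of 11 clones in the Cy3 orientation and 8 of 10 in the Cy5 orientation. Without cow 7188, 37 of 55 members had an estimate above 0 on the pair means. Among cell type markers, 2 of 15 macrophage and Kupffer cell clones (median -0.43), 3 of 12 stellate cell and matrix clones (median -0.44) and 2 of 4 hepatocyte clones (median -0.12) were above 0, and their part in the members' values was not tested.

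NDUFA10 had the lowest statistic of the members here. Its log2 ratios on day 1 were 0.03, -0.29, 0.23, 0.71 and -0.12 in cows 6934, 6983, 7079, 7186 and 7188, against 0.65, -0.17, 1.60, 1.34 and 0.42 on day -30. The day 1 value was the lower one in 5 of 5 cows, but the 2 days overlapped. The difference was -0.66 ± 0.29 (SE, limma adjusted p = 0.58), with -1.01 in the Cy3 orientation and -0.30 in the Cy5 orientation.

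SDHAF2 followed with -0.46 ± 0.21 (limma adjusted p = 0.59), lower on day 1 in 4 of 5 cows, then ATP5F1D with -0.40 ± 0.23 and UQCRC1 clone A with -0.24 ± 0.14. UQCRC1 clone B ran the other way, at 0.32 ± 0.25. COX5A had the highest statistic, at 0.63 ± 0.44 (limma adjusted p = 0.75). Its day -30 value in cow 7079 was -2.13, while the other 4 cows lay between -0.36 and -0.15 on that day, and without that cow the difference was 0.24. UQCR11 and UQCRQ had differences of 0.28 ± 0.21 and 0.16 ± 0.13, which in the Cy3 orientation were -0.04 and -0.0042.

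Day 28 against day 1 addressed the first weeks of lactation. On the pair means 46 of 55 members had an estimate above 0, with a median of 0.12 log2 units, against 61.9% of all clones tested, with a median of 0.06. limma called 0 of 55 members, against 0% of all clones (0 of 5280), and 2 of 55 members had an unadjusted p under 0.05, against 7.82% of all clones. The estimates above 0 were 17 of 22 in complex I, 2 of 2 in complex II, 7 of 9 in complex III, 7 of 7 in complex IV and 9 of 10 in complex V. The complex medians were 0.10, 0.21, 0.08, 0.26 and 0.11 in that order.

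The orientations differed here too. With liver in Cy3 alone 48 of 56 members lay above 0 (66.2% of all clones) with a median of 0.35, and with liver in Cy5 alone 17 of 56 did (49.1% of all clones) with a median of -0.12. The Cy5 arrays gave medians of -0.16 in complex I, -0.16 in complex III, -0.09 in complex IV and -0.07 in complex V. In complex II the median was 0.16 on the Cy5 arrays and 0.25 on the Cy3 arrays. That median rests on 2 clones, of which 1 lay above 0 on the Cy3 arrays. Without cow 7079, 34 of 55 members lay above 0 on the pair means, and the medians of complexes III and V were -0.04 and -0.01. Leaving out the 5 cow-days whose pairs did not oppose left 39 of 56 members above 0. Among cell type markers, 11 of 15 macrophage and Kupffer cell clones (median 0.37), 9 of 12 stellate cell and matrix clones (median 0.38) and 3 of 4 hepatocyte clones (median 0.29) were also above 0, and their part was not tested.

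**Figure D3:**
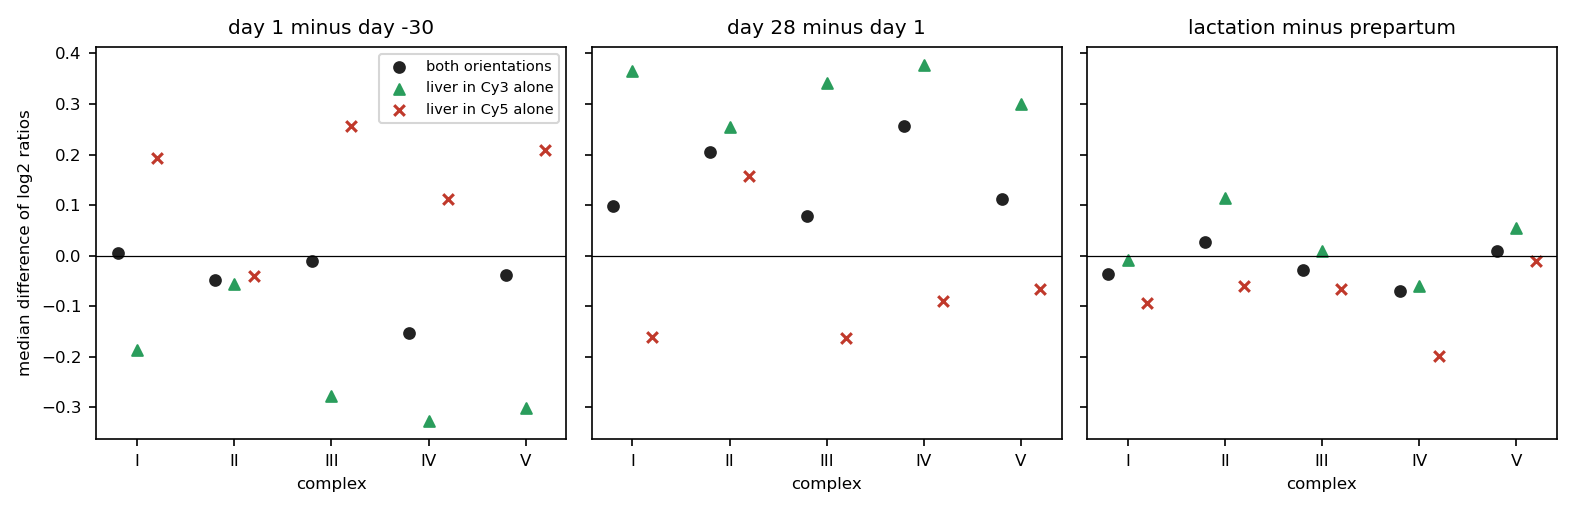
Median difference of log2 ratios over the clones of each complex (y axis, log2 units) for 3 comparisons, from both orientations averaged and from each orientation alone. In day 28 minus day 1 the Cy3 medians lie between 0.25 and 0.38 and the Cy5 medians of complexes I, III, IV and V below 0, and in day 1 minus day -30 the orientations of complexes I, III, IV and V lie on opposite sides of 0.

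Within single cows the complex II mean was higher on day 28 than on day 1 in 5 of 5 cows, by 0.21 ± 0.15 (SD), with 0.06 as the smallest difference and 0.39 as the largest. The complex IV mean was also higher in 5 of 5 cows, by 0.26 ± 0.29, with differences of 0.0011 in cow 6934 and 0.70 in cow 7079. The means of complexes I, III and V were higher in 2, 3 and 3 of 5 cows.

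SDHA had the highest statistic. Its log2 ratios on day 28 were 0.22, 0.93, 0.57, 0.55 and 0.58 in cows 6934, 6983, 7079, 7186 and 7188, against 0.16, 0.54, 0.13, -0.25 and 0.38 on day 1. The day 28 value was higher in every cow, while the 2 days overlapped between cows. The difference was 0.38 ± 0.17 (SE, limma adjusted p = 0.61), with 0.53 in the Cy3 orientation and 0.23 in the Cy5 orientation. SDHD, the other complex II clone, had a difference of 0.03 and was higher in 3 of 5 cows.

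NDUFA10 was higher on day 28 in 5 of 5 cows. It read 0.65, 0.37, 1.75, 0.96 and 0.03 on day 28, against the day 1 values given above, a difference of 0.64 ± 0.29 (limma adjusted p = 0.61). Most of it came from the Cy3 orientation, at 1.20, against 0.07 in the Cy5 orientation. ATP5F1D read 1.39, 0.39, 1.37, 0.97 and 0.72 on day 28, against 0.38, 0.04, 0.79, 0.45 and 0.83 on day 1 in the same order of cows. It was higher in 4 of 5 cows, by 0.47 ± 0.23 (limma adjusted p = 0.63), with 0.72 and 0.22 in the Cy3 and Cy5 orientations. NDUFB9, an accessory subunit of the membrane arm, had 0.43 ± 0.23.

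The lowest statistics were those of NDUFS6 at -1.16 ± 0.58, NDUFV1 at -0.23 ± 0.20, NDUFS3 at -0.35 ± 0.38 and NDUFA7 at -0.14 ± 0.16. NDUFS6 rested on cow 6983, with -2.28 on day 28 and 1.63 on day 1. Without that cow its difference was -0.24. NDUFS3 without cow 7186 was 0.01, and NDUFA7 in the Cy3 orientation was 0.11, so the direction of neither held.

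**Figure D4:**
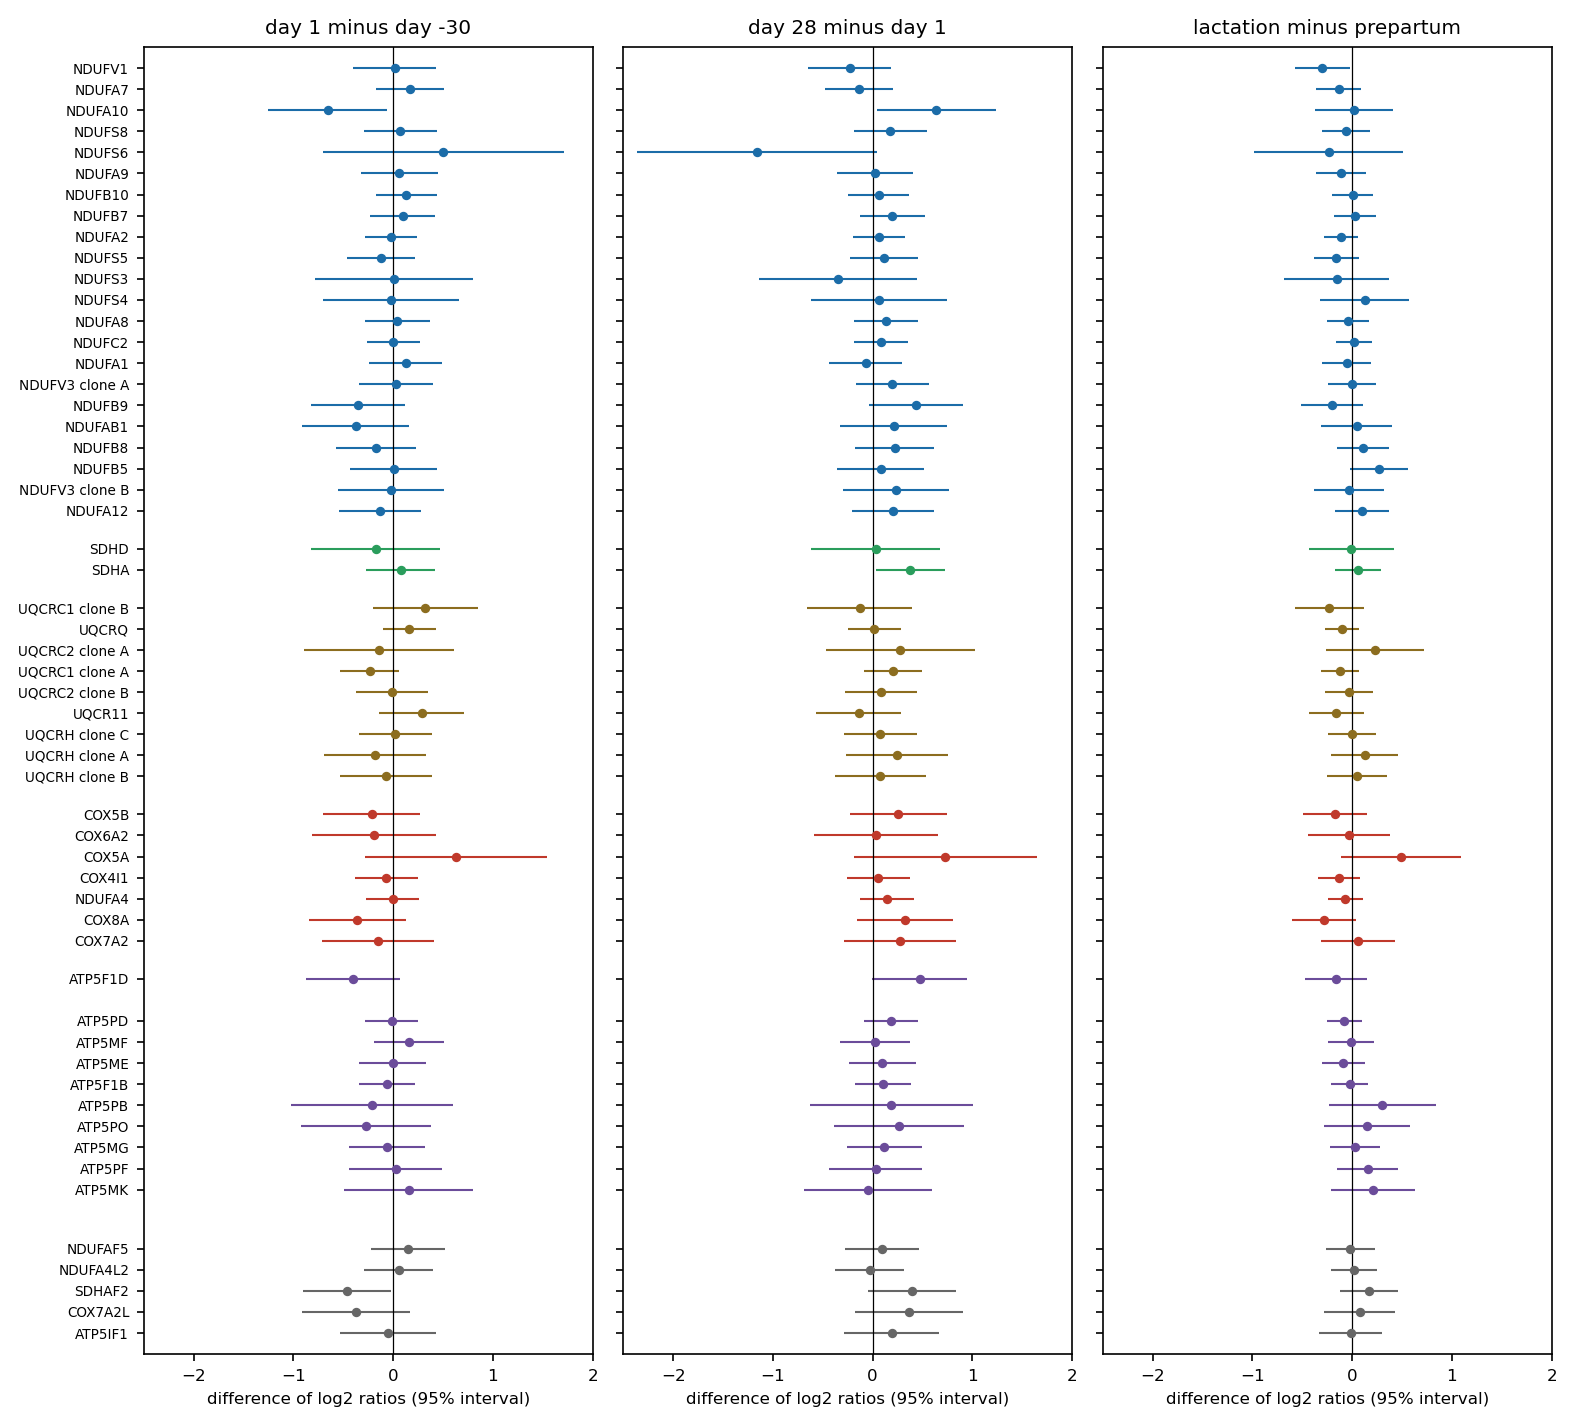
Fitted differences of log2 ratios (x axis, log2 units) with unadjusted 95% intervals for the 55 tested clones (y axis), in 3 comparisons. Colours mark complex I (blue), II (green), III (brown), IV (red), V (purple) and the clones kept apart (grey), from top to bottom. The intervals of most clones cross 0, and NDUFS6 at -1.16 in day 28 minus day 1 has the lowest estimate.

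Lactation as a whole, the mean of days 14, 28 and 49, was set against the mean of the 3 prepartum days. Of 55 members, 24 had an estimate above 0 with a median of -0.02 log2 units, against 47.8% of all clones tested, with a median of -0.01. limma called 0 of 55 members, against 0% of all clones, and 1 of 55 members had an unadjusted p under 0.05, against 3.86% of all clones. The complex medians were -0.04 in complex I, 0.03 in complex II, -0.03 in complex III, -0.07 in complex IV and 0.01 in complex V. For 54 of 55 members the 95% interval lay within 1 log2 unit of 0, as it did for 5145 of 5280 clones in all. Without cow 7186, 10 of 55 members had an estimate above 0, and without centring the arrays 45 of 55 did, when 84.7% of all clones did and their median was 0.14. Of the cow-days whose pairs did not oppose, those on days 14 and 49 entered the lactation mean, and none was prepartum. Leaving out all such cow-days left only cow 7079 on day 14. Then 23 of 56 members lay above 0 (median -0.03), against 60.5% of all clones (median 0.05). The closeness of the members to all clones did not hold without those cow-days.

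NDUFV1 gave the lowest statistic. Its values on the lactation days were 0.43 to 1.65 on day 14, 0.49 to 1.24 on day 28 and 0.53 to 1.20 on day 49, against 0.66 to 1.36 on day -65, 0.47 to 1.36 on day -30 and 0.94 to 1.68 on day -14. It was lower in lactation in 5 of 5 cows while the ranges overlapped, with a difference of -0.30 ± 0.13 (SE, limma adjusted p = 1.00), with -0.22 in the Cy3 orientation and -0.37 in the Cy5 orientation. COX8A followed at -0.28 ± 0.15, lower in 4 of 5 cows, with -0.29 and -0.27 in the Cy3 and Cy5 orientations. NDUFS5, an accessory subunit of complex I, had -0.16 ± 0.11 and UQCRC1 clone B had -0.23 ± 0.17.

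The highest statistics were those of NDUFB5, an accessory subunit of the membrane arm, at 0.27 ± 0.14, COX5A at 0.49 ± 0.29, SDHAF2 at 0.17 ± 0.14 and ATP5PB at 0.30 ± 0.26 (limma adjusted p = 1.00 for each). COX5A was higher in lactation in 4 of 5 cows, and without cow 7079 its difference was 0.24. ATP5PB, the b subunit of the peripheral stalk, rested on cow 7186, which read -1.54 on day -65 and -1.18 on day -14. Without that cow its difference was -0.06. SDHAF2 was -0.03 in the Cy3 orientation and -0.01 without the cow-days whose pairs did not oppose.

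Markers of other cell types are given beside this comparison. None of the 15 tested macrophage and Kupffer cell clones had an estimate above 0, with a median difference of -0.46, and 0 of 15 passed limma's adjusted threshold while 8 had an unadjusted p under 0.05. In the hepatocyte list 1 of 4 clones was above 0 with a median of -0.35, and in the stellate cell and matrix list 11 of 12 were above 0 with a median of 0.11. The part of cell composition in the members' values was not tested.

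The neighbouring mitochondrial pathways also had 0 clones past limma's adjusted threshold in the 3 comparisons, against 1, 0 and 0 of 5280 clones in all. For the counts that follow, the shares of all clones above 0 were 42.9% in day 1 against day -30, 61.9% in day 28 against day 1 and 47.8% in lactation against prepartum. Of the 13 clones of citric acid cycle enzymes, 3 had an estimate above 0 in day 1 against day -30 (median -0.11), 10 in day 28 against day 1 (median 0.09) and 8 in lactation against prepartum (median 0.01). SUCLA2, a subunit of succinyl-CoA synthetase, and MDH2, mitochondrial malate dehydrogenase, had the highest and lowest statistics in lactation, at 0.16 ± 0.16 and -0.12 ± 0.14 (SE). Of 43 tested clones of mitochondrial ribosomal proteins, 12, 27 and 14 had an estimate above 0 in the 3 comparisons, with medians of -0.08, 0.08 and -0.04. MRPL50 had 0.19 ± 0.12 and MRPL24 had -0.27 ± 0.13 in lactation.

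Among 6 tested clones of electron donors to ubiquinone and coenzyme Q synthesis, ETFB, a subunit of the flavoprotein that takes electrons from fatty acid oxidation, had the lowest value in lactation, -0.48 ± 0.13 (unadjusted p = 0.0011, limma adjusted p = 1.00). ETFDH, which passes those electrons to ubiquinone, had 0.23 ± 0.22. Of 11 clones of respiratory complex assembly factors, 6, 9 and 6 were above 0, and both clones of OXA1L, the insertase for inner membrane subunits, had 0.45 ± 0.17 and 0.44 ± 0.20 in day 28 against day 1 (limma adjusted p = 0.54 and 0.61). OXA1L on its first clone also had the lowest statistic of this list in lactation, -0.14 ± 0.11, and TMEM126B, a complex I assembly factor, the highest, 0.14 ± 0.13.

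Of 8 clones of membrane carriers, 5, 6 and 4 were above 0. SLC25A5, an ADP/ATP carrier, had 0.30 ± 0.19 and SLC25A20, the carnitine-acylcarnitine carrier, had -0.34 ± 0.21 in lactation. Of 7 clones of mitochondrial biogenesis regulators, 1, 4 and 4 were above 0, with NFE2L2 at 0.16 ± 0.25 and GABPB1 at -0.13 ± 0.15 in lactation. Of 15 clones of import receptors and chaperones, 7, 9 and 5 were above 0, with TOMM70, an outer membrane receptor, at 0.31 ± 0.26 and TIMM22, an inner membrane translocase, at -0.33 ± 0.19.

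Subunits of one complex are assembled in fixed proportions, so their covariation was described on the residuals left after day and cow means, over 30 cow-days that share arrays and centring. Pairs of members of different genes had a median Pearson r of 0.10 (1425 pairs), against 0.02 over all clones measured in every cow-day, and 3.93% of member pairs exceeded 0.8, against 1.47% of all pairs. Pairs within a complex had a median r of 0.06 and pairs across complexes 0.08. Complex V had a median of 0.11 with 13.3% of its pairs over 0.8, led by ATP5PO and ATP5PB of the peripheral stalk at 0.97.

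Clones of 1 gene did not always follow each other. UQCRH clones A and B correlated at 0.93, but clone C correlated with each of them at 0.46. The clones of NDUFV3 correlated at 0.71, those of UQCRC2 at 0.39 and those of UQCRC1 at -0.06.

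Grouping the clones by likeness of their residuals, with average linkage and a distance limit of 0.5 chosen after the matrix was seen, gave 3 sets of at least 5 clones, each spanning several complexes. The largest held 17 clones from all 5 complexes with a median r of 0.73, among them ATP5PB, ATP5PF, ATP5PO, ATP5MK, ATP5MG, NDUFS4, NDUFAB1, NDUFA12, SDHD, COX7A2, COX7A2L, ATP5IF1, UQCRC2 clone A and UQCRH clones A and B. The next held 13 clones, also from all 5 complexes, with a median r of 0.61, among them NDUFA9, NDUFB7, NDUFB10, NDUFC2, NDUFS8, SDHA, COX4I1, ATP5ME, ATP5MF, NDUFAF5 and UQCRH clone C. The median r between clones of these 2 sets was -0.19, and they divide the 2 subunits of complex II and the 3 clones of UQCRH. The third set held 9 clones with a median r of 0.59, among them NDUFA10, NDUFB8, NDUFB9, both NDUFV3 clones, COX5B, COX8A, UQCR11 and ATP5F1B.

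Clones outside the respiratory chain also followed these profiles, to different extents. The mean profile of the largest set correlated above 0.5 with 18 of 54 member clones (33.3%) and with 19.3% of all clones measured in every cow-day. The next set's profile did so with 15 of 54 (27.8%) and 20.6%, and the third set's with 17 of 54 (31.5%) and 12.3%. The sets were formed by 17, 13 and 9 of these same members. The member shares are therefore raised by construction and cannot be set against those of all clones. The leading component of the residuals over all clones held 25.8% of their variance, and the profile of the largest set correlated with it at 0.83 in size, that of the next set at 0.53 and that of the third at 0.10. In the largest set the mean residual was 0.70 on day 1 of cow 7186, -0.87 on day 1 of cow 7188 and -0.69 on day -65 of cow 7186, the cow-days with the widest departures. With the leading component removed, the median r was 0.19 over member pairs and 0.02 over all pairs, 0.16 within complexes and 0.17 across them, and 0.37 in complex V.

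**Figure D5:**
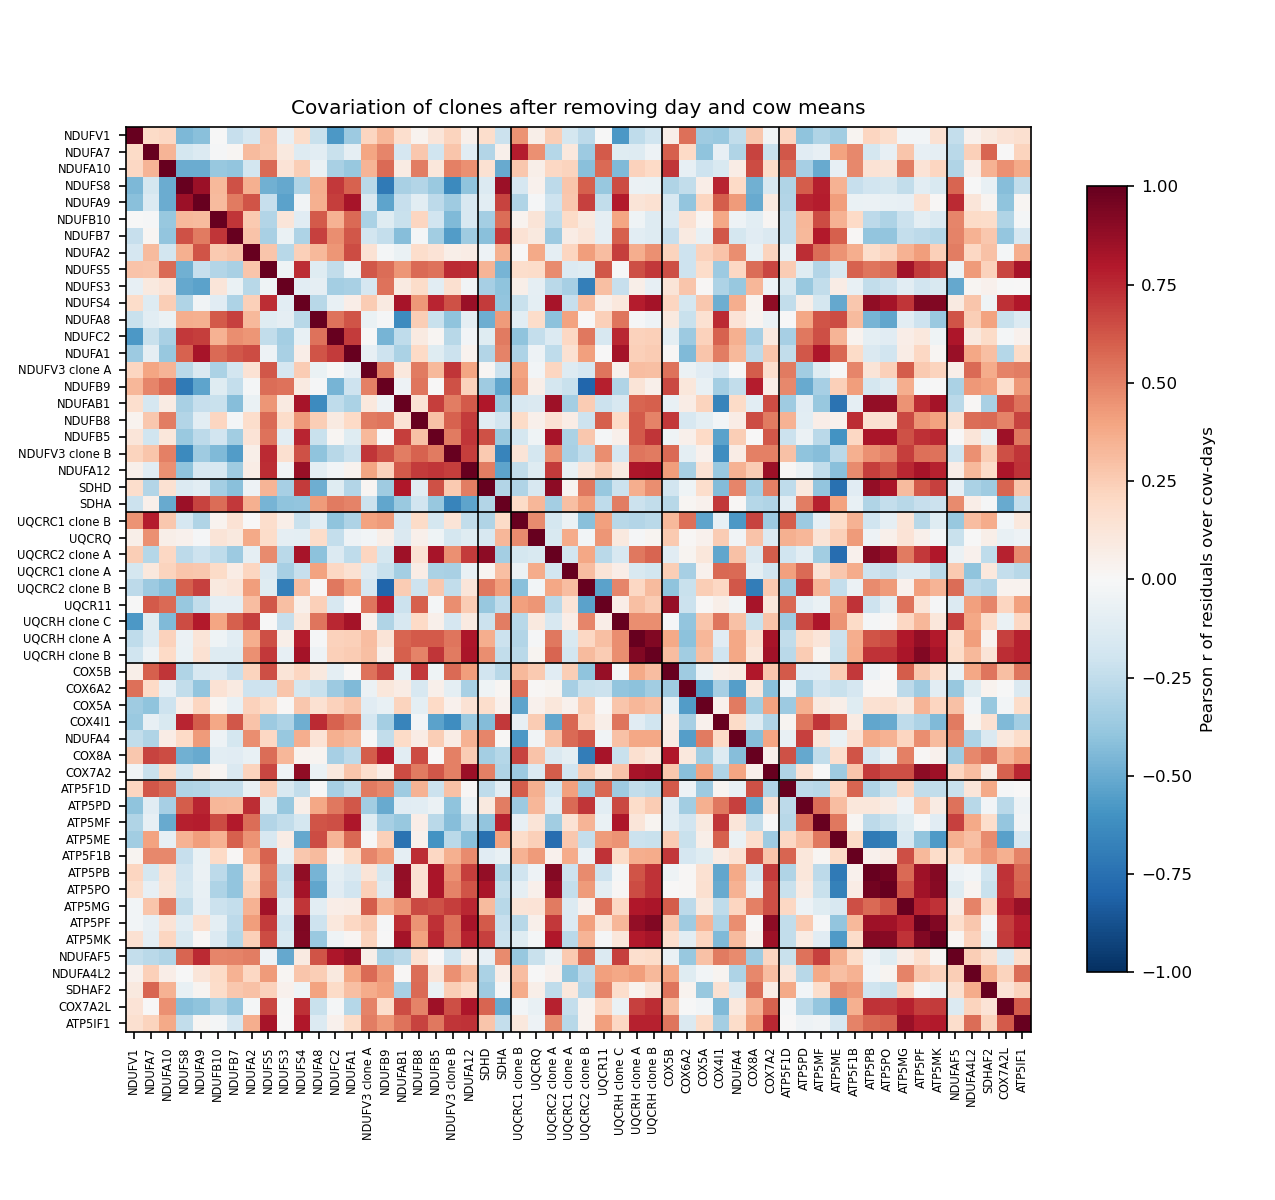
Pearson correlation (colour, -1 to 1) of residuals after day and cow means over 30 cow-days, for the 54 member clones with a value in every cow-day, ordered by complex and, within it, by mean ratio. Black lines separate complexes I, II, III, IV, V and the clones kept apart. The high values form patches across the complexes, such as ATP5PB, ATP5PO, ATP5PF and ATP5MK with NDUFS4 and COX7A2, and the median within complexes is 0.06.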

How the data were processed

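As deposited, each spot carries a log2 ratio between its 2 dyes. Per the labels, scanning was with a Scanarray instrument and image analysis with GenePix 4.0. Background, flags, normalization and the numerator were not stated, and without intensities no signal over background or loess correction could be had. The number of arrays limits the precision.

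Arrays with liver in Cy3 were turned in sign, array medians were subtracted, the 2 spots of a clone were averaged, and both orientations were averaged per cow-day. Tests used the larger table (60 arrays, 16416 rows). The smaller table (8 arrays, 16896 rows) came from another print and served as an alternative. Symbols came from the platform annotation, updated through gene identifiers for 5591 of 5693 clones. The 95 clones naming several genes were never named.

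limma 3.58.1 (R 4.3.3) fitted day and cow as fixed terms to 5280 clones with at least 3 cows per day, with 19 residual degrees of freedom, 2-sided tests and Benjamini-Hochberg adjustment over all of them. The same cows recur, so cow is the pairing block: deviations from day means correlated at 0.14 between days of a cow and at -0.03 between cows. SE for clones with gaps came from the exact design. The fit was also run on simulated data with known changes. Their noise was drawn independently per clone and cow-day, so it does not cover variation that clones share.

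Members and lists were chosen with earlier results of these data known. Named were members past the threshold, the 4 highest and 4 lowest statistics per comparison (5 smallest p for the day effect), the 2 highest and 2 lowest levels per complex, isoform, core and assembly genes, and the extreme statistics of each pathway list in lactation. Alternatives were 1 orientation alone, no centring, scaling, array weights, other filters, the smaller table joined, no or a random replicate block, and leaving out cows or the non-opposing cow-days.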

Additional observations from a re-analysis of the deposited data

Results flagged for a closer look

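Groups of 4 or 5 cows on 1 day were screened by Dixon's ratio, for the complex means and the members named for their statistics. Chance flags about 1 in 20 groups, but these members were picked for extreme statistics, so that rate is no baseline for them. Of 120 groups, 7 had a cow far from the others. Cow 7079 gave 4 of these. COX5A was -2.13 on day -30, where the others lay between -0.36 and -0.15. COX8A was 0.73 on day 28 and -0.78 on day 49, where the others lay between -0.25 and -0.07 and between -0.45 and -0.42. UQCR11 was 0.83 on day 28, where the others lay between -0.28 and 0.02.

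Cow 7186 gave the other 3. ATP5PB was -1.54 on day -65, where the others lay between -0.23 and 0.11, and NDUFB5 was -1.18 on that day, where the others lay between -0.56 and -0.33. The complex IV mean was 0.14 on day 1, where the others lay between -0.28 and -0.21.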

How the results depend on the processing

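No member passed limma's adjusted threshold in any of the 4 tests under any alternative run. Counts over all clones moved. For the day effect (1 clone), array weights gave 84, no replicate block, the Cy5 orientation alone, no centring, scaling to 1 median absolute deviation and the opposing cow-days alone gave 0, and leaving out 1 cow gave 0 to 0. For day 1 against day -30 (1 clone), array weights gave 2, scaling gave 10, the Cy5 orientation and the fit on the 2 days alone gave 0, and leaving out 1 cow gave 0 to 1 (0 without 7188). For day 28 against day 1 (0 clones), the Cy3 orientation gave 6 and leaving out 1 cow 0 to 1 (1 without 6934). Members above 0 numbered 7 (Cy3 alone), 42 (Cy5 alone), 37 (no centring), 34 (scaling) and 16 to 37 (1 cow left out) for day 1 against day -30. For day 28 against day 1 they numbered 17 (Cy5 alone), 34 (scaling) and 34 to 47 (1 cow left out). For lactation against prepartum they numbered 45 (no centring) and 10 to 31 (1 cow left out). With scaling, 44.6% of all clones lay above 0 in day 1 against day -30 and 56.0% in day 28 against day 1.

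Complex medians moved by at least 1 SD over cows of the complex's difference as follows. In day 1 against day -30, complex IV was 0.11 in Cy5 alone. In day 28 against day 1, complex I was 0.36 in Cy3 alone and -0.16 in Cy5 alone, complex III was 0.34 in Cy3 alone and complex IV was -0.089 in Cy5 alone. In lactation against prepartum, complex I was -0.094 in Cy5 alone and 0.11 without centring, and complex IV was -0.20 in Cy5 alone, 0.074 without centring, -0.13 with the smaller table joined and -0.13 to -0.053 with 1 cow left out. Differences that turned sign were UQCRQ (-0.0042) and UQCR11 (-0.039) in day 1 against day -30 and NDUFA7 (0.11) in day 28 against day 1 in Cy3 alone, and SDHAF2 in lactation (-0.031 in Cy3 alone, -0.011 without the non-opposing cow-days). With 1 cow left out, NDUFS3 in day 28 against day 1 ran from -0.72 to 0.011 and ATP5PB in lactation from -0.056 to 0.52. Smaller shifts turned signs too: 14 of the 15 complex medians took the other sign under at least 1 of 17 alternatives, among them, in day 1 against day -30, complexes III (0.26) and V (0.21) in Cy5 alone and complex I (-0.19) in Cy3 alone. The exception was complex II in day 28 against day 1, between 0.13 and 0.26. It is a median of 2 clones, SDHA at 0.38 and SDHD at 0.03. The cause of these shifts was not tested. With or without the replicate block, 46 of 55 members lay above 0 in day 28 against day 1. The arrays give no signal over background, so low clones could not be set apart.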

Other observations

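The smaller table, from another print, held cows 6934 and 7079 at day -14 and cows 6934 and 7188 at day 14, and entered the comparisons of days only as an alternative, when joined to the larger one. Complex II again lay above the reference in its 4 cow-days, with means of 0.60 and 0.55 on day -14 and 0.78 and 1.07 on day 14. Complex IV lay below it, with means of -0.63 and -0.37 on day -14 and -0.54 and -0.72 on day 14. The means of complexes I and V lay between -0.42 and -0.11, and those of complex III between -0.31 and -0.03. Of the 57 member clones, 37 lay on the same side of the reference in both tables and their means correlated at 0.37 across clones, against 3676 of 5693 and 0.69 over all listed clones, where ratios spread more widely.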
